A study of Mus musculus with 25 samples.

Results

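The genes described here are the variable segments of the T cell receptor alpha chain (Trav) and beta chain (Trbv) that were detected in 25 mouse melanomas. A row of the count table was taken when its symbol began with Trav or Trbv and its counts, summed over the 25 tumours, reached 10. The rule kept 100 of 55450 genes, 80 Trav and 20 Trbv segments, out of 163 rows with such a symbol. Of the 63 rows left out, 27 had no count in any tumour and 36 had some, and the 100 segments held 96.9% of all Trav and Trbv counts. Just inside the rule, Trav13d-3, Trav5-1, Trav5d-4 and Trav5n-4 each had 10 counts, and just outside it Trav4d-3 and Trav4n-3 each had 9.5. The members were thus chosen by their summed counts over all 25 tumours, of which 20 were treated with anti-CTLA-4, so a segment could enter through those tumours alone.

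The tumours grew from B2905 cells, a mouse melanoma line also called M4, in C57BL/6 mice. All 25 mice received repeated doses of an antibody at 10 mg/kg, begun at an average tumour size of 75 mm3. In 5 mice, the controls, the antibody was IgG2b, an isotype control. The other 20 received anti-CTLA-4, which binds a receptor that restrains T cells. Their tumours were grouped 10 to 11 days after the last dose as 6 non-responders, which kept growing, 6 stable tumours, which held their size, and 8 responders, which shrank. All tumours come from 1 cell line, and each library from 1 tumour.

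Each T cell builds its own receptor by joining a variable segment to shorter pieces and then to a constant region, Trac for the alpha chain and Trbc1 or Trbc2 for the beta chain. Cells descended from 1 ancestor carry the same segments, so an even use of many segments is known from mixed T cell populations and a few dominant segments from expanded clones. In the mouse the alpha locus holds duplicated copies of many segments, marked d and n in their symbols, whereas the beta locus has few such copies. Segments with dv in the symbol can also be joined into the delta chain of gamma delta T cells.

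The 20 Trbv segments lie on chromosome 6 and the 80 Trav segments on chromosome 14 of GRCm38, and their exons span 328 to 595 bases. Of the Trav segments, 25 were d copies, 19 were n copies and 36 carried no letter, and the last held 56.0% of the Trav counts. For 11 pairs, 22 segments in all, the annotated transcripts were identical, the counts were equal in every tumour, and the pairs held 22.6% of Trav counts. How reads were divided within such pairs, and among the 56 Trav and 2 Trbv segments with values that were not whole, is therefore uncertain. Only 3 segments overlapped another annotated gene, Trbv4, Trbv5 and Trav13d-3.

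The 9 Trbv segments with enough counts to be tested are shown by the last 45 bases of the exon that encodes the variable domain, since this end is what reaches into the junction. Capitals mark the codon of the conserved cysteine at which the junction begins, which leaves 13 to 18 germline bases after it.
Trbv3: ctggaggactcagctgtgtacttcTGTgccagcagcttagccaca
Trbv13-1: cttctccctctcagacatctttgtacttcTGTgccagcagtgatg
Trbv13-2: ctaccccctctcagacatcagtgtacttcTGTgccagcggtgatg
Trbv13-3: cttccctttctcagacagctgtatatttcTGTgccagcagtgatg
Trbv15: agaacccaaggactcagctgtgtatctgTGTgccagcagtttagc
Trbv16: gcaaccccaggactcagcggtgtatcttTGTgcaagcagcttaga
Trbv17: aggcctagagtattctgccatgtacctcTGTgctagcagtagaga
Trbv19: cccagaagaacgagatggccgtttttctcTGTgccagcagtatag
Trbv29: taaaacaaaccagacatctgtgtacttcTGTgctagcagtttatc
These exons lie on the plus strand of GRCm38, from chr6:41048527-41048828 for Trbv3 to chr6:41271587-41271881 for Trbv29, with Trbv17 at chr6:41163262-41163556 and Trbv19 at chr6:41178746-41179048. The codon was found by a search for tgt or tgc with a codon for an aromatic residue placed before it and letters gc after it.

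Total counts per tumour ranged from 8764590 to 34311300, and the 100 segments together gave only 28 to 605 counts in a tumour. Control tumours 1 to 5 gave 29, 62, 40, 56 and 69 segment counts. The lowest, median and highest were 48, 171 and 605 in the non-responders, 246, 335 and 390 in the stable tumours, and 28, 169 and 560 in the responders. No segment had a count in every tumour, and 13 had one in 20 or more. The share of counts from protein-coding genes was 23.8% to 74.3% in 7 of the 8 responders, 87.0% in responder 5, and 82.9% to 89.2% in the other groups. Values on a protein-coding scale and calls from a fit with this share as a covariate are given with the results. The numbers that open the sample descriptions run by group, 1 to 5 in the controls, 6 to 11 in the non-responders, 12 to 19 in the responders and 20 to 25 in the stable tumours. The labels do not say what these numbers stand for. If they give the processing order, that order and group cannot be told apart.

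Segment transcripts were several-fold more abundant in the anti-CTLA-4 tumours than in the controls, whatever the outcome. The summed level, in CPM (the usual per-million scaling of counts, over a library size adjusted by TMM), was 0.967, 2.28, 1.57, 1.53 and 3.57 in control tumours 1 to 5. It ran from 2.06 through a median of 8.76 to 23.1 in the non-responders, from 14.4 through 17.1 to 20.2 in the stable tumours, and from 6.25 through 11.3 to 25.2 in the responders. All 8 responders, all 6 stable tumours and 5 of 6 non-responders lay above every control. The group means were 1.98 ± 1.00 CPM in the controls (SD, n = 5), 9.65 ± 7.46 in the non-responders (SD, n = 6), 17.2 ± 2.29 in the stable tumours (SD, n = 6) and 12.5 ± 5.92 in the responders (SD, n = 8). These are 4.87, 8.66 and 6.29 times the control mean for non-responders, stable tumours and responders. In bulk RNA, fewer T cells and less receptor RNA per T cell cannot be told apart.

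Stable tumours were the most closely spaced of the 3 outcome groups, and responders fell mostly below them. Of the 8 responders, 6 lay below every stable tumour, and responder 5 lay above all of them at 25.2 CPM. The responder mean was 0.727 times the stable mean and 1.29 times the non-responder mean, and responder and non-responder values overlapped. Scaled to protein-coding counts in place of the TMM library, the group means were 2.48 ± 1.25 in the controls, 12.3 ± 8.99 in the non-responders, 20.9 ± 3.19 in the stable tumours and 17.2 ± 7.05 in the responders, in CPM of that total (SD). The order of the groups was the same on both scales. Because the sum is a score over chosen genes, no p-value is given for it.

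Both chains showed this order. Trav segments summed to 1.14 ± 0.503 CPM in the controls, 4.17 ± 2.92 in the non-responders, 7.73 ± 1.62 in the stable tumours and 6.30 ± 2.57 in the responders (SD). Trbv segments summed to 0.844 ± 0.57, 5.49 ± 4.66, 9.45 ± 1.21 and 6.19 ± 3.70 CPM in the same order. Every responder and every stable tumour exceeded every control on each chain, which for responder 1 again depends on its TMM factor. Of the 8 responders, 7 on the beta chain and 3 on the alpha chain lay below every stable tumour.

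**Figure D1:**
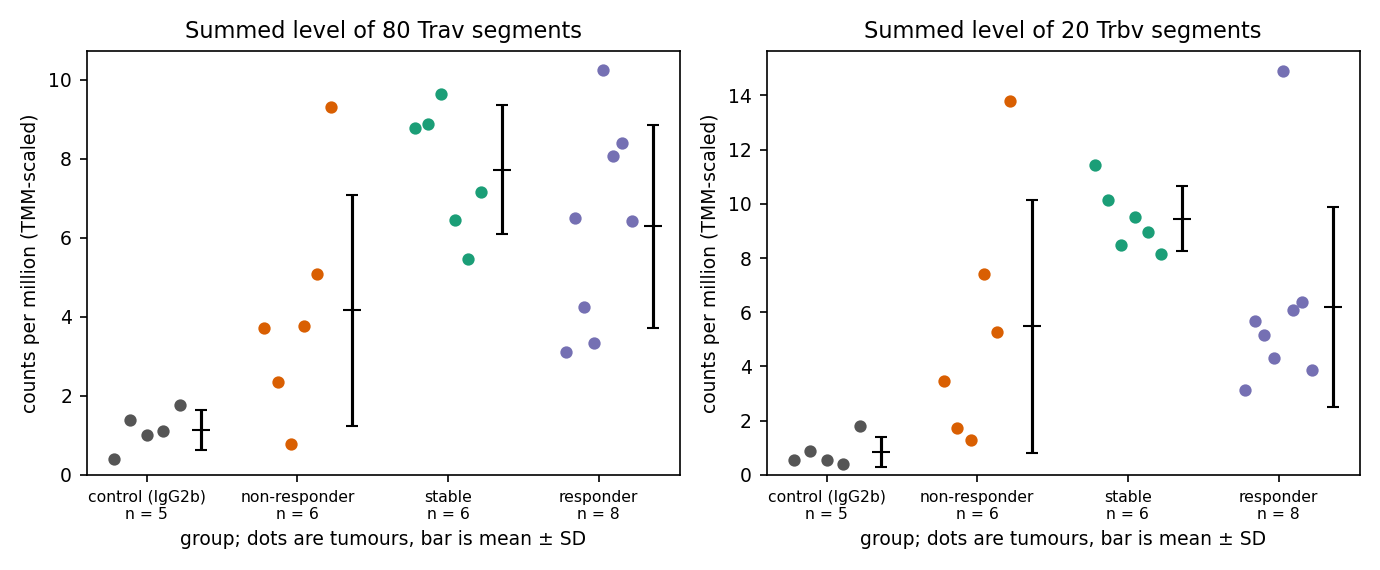
Summed level of the 80 Trav segments (left) and the 20 Trbv segments (right) in CPM for each tumour, by group, with the group mean ± SD as a bar beside the dots. All responders and all stable tumours sit above every control on both chains, and 1 responder, responder 5, stands above the rest of its group. The place of responder 1 depends on its TMM factor.

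The constant regions and the CD3 chains that carry the receptor to the cell surface were also higher than in controls. In a list of 14 genes of the receptor complex and its proximal signalling, 14 of 14 were higher in the responders, in the stable tumours and in the non-responders than in the controls at an adjusted p under 0.05 (edgeR quasi-likelihood test, Benjamini-Hochberg over 18031 genes), with median log2 fold changes of 3.23, 3.61 and 2.62. Of all genes tested, 36.1%, 22.2% and 10.6% were called higher in those comparisons, and the median log2 fold change of all genes was 0.16, 0.02 and 0.04. Between responders and non-responders 5 of the 14 were higher, between stable tumours and non-responders 2, and between responders and stable tumours none, beside 25.2%, 7.08% and 20.5% of all genes. Stable tumours had 13.3 times the control mean of Trac and 6.78 times that of the summed Trav segments. For the Trav segments without Trav4-4-dv10, which is described below, the factor was 9.94. On the beta chain it was 10.8 for the constant regions and 11.2 for the summed Trbv segments. Responders had 12.8 times the control mean of Cd3e.

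Relative to the beta constant regions the ranges of Trbv counts overlapped, and relative to the CD3 chain Cd3e most responders had fewer segment counts. Trbv counts per Trbc1 and Trbc2 count were 0.210 ± 0.032 in the controls, 0.245 ± 0.022 in the non-responders, 0.230 ± 0.028 in the stable tumours and 0.204 ± 0.035 in the responders (SD), with overlapping ranges. Of the 8 responders, 5 lay below every non-responder and 3 below every stable tumour, and 3 of 6 non-responders lay above every control. Segment counts per Cd3e count ran from 0.462 to 0.714 in 7 responders and stood at 1.72 in responder 5. The range was 1.15 to 1.93 in the controls, 0.854 to 2.29 in the non-responders and 0.909 to 2.09 in the stable tumours, so those 7 responders lay below every other tumour. Mean Cd3e was higher in responders than in stable tumours (17.5 and 13.6 CPM). By contrast, Cd3g (17.9 and 26.3 CPM), Cd3d (9.55 and 13.7) and Cd247 (7.94 and 11.6) were lower in responders. Segment counts relative to those genes were not computed, so the low ratio is shown for Cd3e only. The 7 are the responders with a protein-coding share of 23.8% to 74.3%, and the part of that share was not tested.

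Trac, the alpha constant region, was also low relative to Cd3e there, with 0.378 to 0.649 Trac counts per Cd3e count in those 7 responders and 1.89 in responder 5. Responders exceeded non-responders in Cd3e (log2 fold change 1.27, SE 0.36, adjusted p = 0.0067, edgeR), whereas Trac gave 0.14 (SE 0.40, adjusted p = 0.79, edgeR). These are the highest and the lowest of the 14 values in the receptor list, whose median was 0.64. Trav counts per Trac count were highest in the controls, at 0.429 to 1.58 (mean 0.826), and ran from 0.295 to 0.554 in the non-responders, 0.292 to 0.397 in the stable tumours and 0.370 to 1.06 in the responders. All 6 stable tumours, 3 of 6 non-responders and 1 of 8 responders lay below every control. Of the 8 responders, 7 lay above every stable tumour. Without Trav4-4-dv10 the controls no longer had the highest mean. The group means were then 0.532 in the controls, 0.353 in the non-responders, 0.358 in the stable tumours and 0.564 in the responders. Only 1 stable tumour, 1 non-responder and 0 responders then lay below every control. Still 7 of 8 responders lay above every stable tumour, and 6 lay above every non-responder.

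Markers of other cells also moved with the groups, and their part in the segment values was not tested. The 9 T cell markers, all detected in each group, summed to 7.53 to 25.0 CPM in the controls, 20.9 to 185 in the non-responders, 140 to 200.5 in the stable tumours and 69.6 to 232 in the responders. Of the 5 melanocyte markers (Mlana, Dct, Tyr, Pmel and Tyrp1), all 5 were detected in each group, and they summed to 9759 to 16197 CPM in the controls, 376 to 13059 in the non-responders, 10.4 to 163 in the stable tumours and 17.6 to 409 in the responders. The 5 macrophage markers summed to 345 to 621 CPM in the controls, 490 to 1799 in the non-responders, 1589 to 2507 in the stable tumours and 720 to 2203 in the responders. The 4 natural killer cell markers, all detected in each group, summed to 1.45 to 4.91 CPM in the controls and to group medians of 10.0, 22.8 and 17.0 in the non-responders, stable tumours and responders. The 5 B cell markers, also all detected, summed to 1.14 to 3.31, 2.96 to 14.1, 7.44 to 14.6 and 1.12 to 29.1 CPM in the order controls, non-responders, stable tumours, responders. The 4 genes of receptor assembly in thymocytes (Rag1, Rag2, Dntt and Ptcra) summed to at most 11 counts in any tumour, and Rag2 was at 0 in all 25.

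Tested one by one, none of the 9 segments with enough counts was called between outcome groups, and all 9 were called higher in responders and stable tumours than in the controls. Only 9 of the 100 segments, all Trbv, had enough counts for the filter. A segment could pass through the groups in which it was high, so the number that passed and were called is a description. In responders and in the stable tumours against controls, 9 of 9 were called higher, and in the non-responders against controls 5 of 9, beside 65%, 41.8% and 13.9% of all 18031 genes called in either direction. By direction, 36.1%, 22.2% and 10.6% of all genes were higher and 28.9%, 19.6% and 3.29% lower. Between responders and non-responders, responders and stable tumours, and stable tumours and non-responders, 0 of 9 were called, with 0 of 9 at an unadjusted p under 0.05 in each, beside 48.9%, 38.2% and 14.9% of all genes called and 56.3%, 48.3% and 29.2% at an unadjusted p under 0.05. Adding each tumour's protein-coding share to the model gave the same numbers of calls in all 6 comparisons (9, 9, 5, 0, 0 and 0). Beside them, 45.3%, 45.1%, 16%, 10%, 0% and 17.5% of all genes were called. Between responders and stable tumours that fit called no gene at all, so its 0 there is no result about the segments. In the comparisons between outcome groups DESeq2 called 3, 0 and 0 segments, beside 43.2%, 34.9% and 18% of all genes. The labels do not say more of the mice than their groups, so these p-values measure the spread between the tumours of a group.

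Without the filter, all 100 segments could be fitted among 32985 genes. Against controls, 52 were higher and 1 lower in the responders, 53 higher and 0 lower in the stable tumours, and 14 higher and 0 lower in the non-responders, beside 38.5%, 23.9% and 5.86% of all genes called in either direction. By direction, 19.2%, 10.3% and 4.12% of all genes were higher and 19.3%, 13.6% and 1.74% lower. The medians of the 100 log2 fold changes were 2.67, 3.06 and 2.24, beside 0.11, 0.00 and 0.00 for all genes in this fit. The 28 segments at 0 in every control entered the set through treated tumours alone, which fixed their direction, so these counts are a description. They made up 15, 17 and 3 of the segments called higher, and the 72 with a control count 37, 36 and 11. Among the Trbv segments 15, 17 and 8 of 20 were higher, and among the Trav segments 37, 36 and 6 of 80. Where a segment had 3 or fewer counts over the 5 controls, as 53 of the 100 did, with a further 28 at 0, the fitted fold change depends on the model's prior count. With those 28 set at the level of 3 counts over all controls, which makes their ratio a lower bound, the median ratio to the pooled controls was 5.40 in the responders, 7.05 in the stable tumours and 3.65 in the non-responders.

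Between the outcome groups this fit called 2 segments, Trav13-1 and Trav14-2, both higher in the responders than in the non-responders, beside 25.3% of all genes, and 0 in the other comparisons, beside 17.3% for responders against stable tumours and 5.78% for stable tumours against non-responders (2.09% higher and 3.69% lower). The numbers at an unadjusted p under 0.05 were 15, 5 and 14 of 100, beside 36.5%, 31.7% and 19.2% of all genes. Trav13-1 had a median of 0.233 CPM in the responders, from 0 to 0.633, and 0.0202 in the non-responders, from 0 to 0.191. Its log2 fold change was 2.08 (SE 0.74, adjusted p = 0.0390, edgeR), and DESeq2 called it too, with Trav14-2 and Trav16. Trav14-2 rests on 13 counts in 5 of 8 responders and 1 count in 6 non-responders (log2 fold change 3.08, SE 1.10, adjusted p = 0.0400, edgeR), and it also had 5 counts in control 1. Trav13-1 values of the 2 groups overlapped.

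The most abundant segment per length was Trbv3. Its level in control tumours 1 to 5 was 0.0667, 0.111, 0.157, 0.164 and 0.362 CPM. It ran from 0 through 0.533 to 1.41 in the non-responders, from 0.809 through 1.14 to 1.80 in the stable tumours, and from 0.140 through 0.280 to 2.74 in the responders. Every stable tumour exceeded every control, and 5 of the 6 non-responders and 7 of the 8 responders lay below every stable tumour. Responder 5 alone gave 61 of the 93 Trbv3 counts of responders. Against controls the log2 fold change was 2.01 in the responders (SE 0.75, adjusted p = 0.0226) and 2.88 in the stable tumours (SE 0.78, adjusted p = 0.0045, edgeR). Without responder 5 the first was 1.07 with an adjusted p of 0.152, and Trbv3 was then lower in the responders than in the stable tumours by the same test (log2 fold change -1.82, adjusted p = 0.0107), beside 49.3% of all genes.

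Trbv19 and Trbv17 came next per length. Trbv19 was at 0, 0.258, 0.0391, 0.0274 and 0.207 CPM in control tumours 1 to 5, and at 0 to 1.95 (median 0.435) in the non-responders, 0.731 to 1.74 (median 0.977) in the stable tumours and 0 to 2.70 (median 0.461) in the responders. Its stable tumours did not overlap the controls, and responder 5 again stood highest of its group. Against controls its log2 fold change was 3.37 in the stable tumours (SE 1.01, adjusted p = 0.0092) and 2.90 in the responders (SE 0.98, adjusted p = 0.0125, edgeR), and 2.58 in the non-responders, which did not pass (SE 1.00, adjusted p = 0.0870). Without control 2, which held 7 of its 13 control counts, the value was 4.07 in the stable tumours and 3.59 in the responders, and without responder 5 it was 2.21 in the responders.

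Trbv17 was nearly absent from controls. It had 1 count in control 1, 1 in control 5 and 0 in the other 3. It ran from 0.0432 through 0.190 to 1.41 CPM in the non-responders, from 0.192 through 0.573 to 1.47 in the stable tumours and from 0.0501 through 0.384 to 1.23 in the responders. All but 1 non-responder and 1 responder exceeded the highest control, 0.0517 CPM. The fitted log2 fold changes were 4.24 (SE 1.01, adjusted p = 0.0062), 5.13 (SE 1.01, adjusted p = 0.00022) and 4.47 (SE 1.01, adjusted p = 0.00050, edgeR). Non-responder 6 held 37 of the 57 non-responder counts, and without it the first value was 3.13 (adjusted p = 0.0309). Against the 2 pooled control counts the ratios were 26.3 (7.29 to 218) in the non-responders, 50.8 (14.1 to 420) in the stable tumours and 33.4 (9.25 to 276) in the responders, with 95% exact Poisson intervals that cover the counting error of the control counts only.

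The 3 members of the Trbv13 family had few control counts, and no test compared them with each other. Trbv13-3 was at 0.0333 CPM in control 1, 0.0517 in control 5 and 0 in the other 3, against medians of 0.382, 0.57 and 0.342 in the non-responders, stable tumours and responders. It was higher in all 3 groups (log2 fold changes 4.18, 4.41 and 4.20, adjusted p = 0.0097, 0.0017 and 0.0014, edgeR), though 1 stable tumour and 2 responders had no count. Trbv13-1 was at 0.167 CPM in control 1, 0.0548 in control 4 and 0 in the others, with medians of 0.421, 0.514 and 0.277, and was also called in all 3 (3.09, 3.25 and 2.47). Stable tumours were closely spaced in Trbv13-1, from 0.435 to 0.585 CPM. Without control 1, which held 5 of its 7 control counts, the 3 values were 4.29, 4.45 and 3.66. Trbv13-2 was at 0.0333, 0.0368, 0, 0 and 0.207 CPM in control tumours 1 to 5, with medians of 0.246, 0.479 and 0.364, and passed in the stable tumours (3.23) and responders (2.99), while its value in the non-responders was 2.43 (adjusted p = 0.0565, edgeR). Without control 5, which held 4 of its 6 control counts, the values were 4.43 in the stable tumours and 4.19 in the responders.

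The other 3 tested segments were Trbv15, Trbv16 and Trbv29. Trbv15 was at 0.0391 CPM in control 3, 0.0548 in control 4 and 0 in the others, and its log2 fold changes were 3.07 in the non-responders, 4.30 in the stable tumours and 3.59 in the responders, all 3 called. The call in the non-responders, where non-responder 6 held 21 of 32 counts, was lost without control 1, 2 or 5 (adjusted p = 0.0801, 0.0627 and 0.0576, edgeR), and without control 4 the values were 3.8, 5.04 and 4.31. Trbv29 was at 0.0667, 0.111, 0, 0 and 0.0517 CPM in control tumours 1 to 5, and every stable tumour and every responder exceeded all of them, from 0.192 to 1.12 and from 0.140 to 0.762 CPM. In responder 1 this rests on 1 count and on its TMM factor. Its log2 fold changes were 3.05, 3.52 and 2.81 in the non-responders, stable tumours and responders, all 3 called. Trbv16 was at 0.0333, 0.0737, 0.0783, 0.0274 and 0.259 CPM in control tumours 1 to 5, and the highest, control 5, exceeded the lowest stable tumour at 0.249. It was called in the stable tumours (2.73) and responders (2.11), and its 1.76 in the non-responders did not pass (adjusted p = 0.104, edgeR). Without control 5 its values were 3.41 in the stable tumours and 2.78 in the responders.

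**Figure D2:**
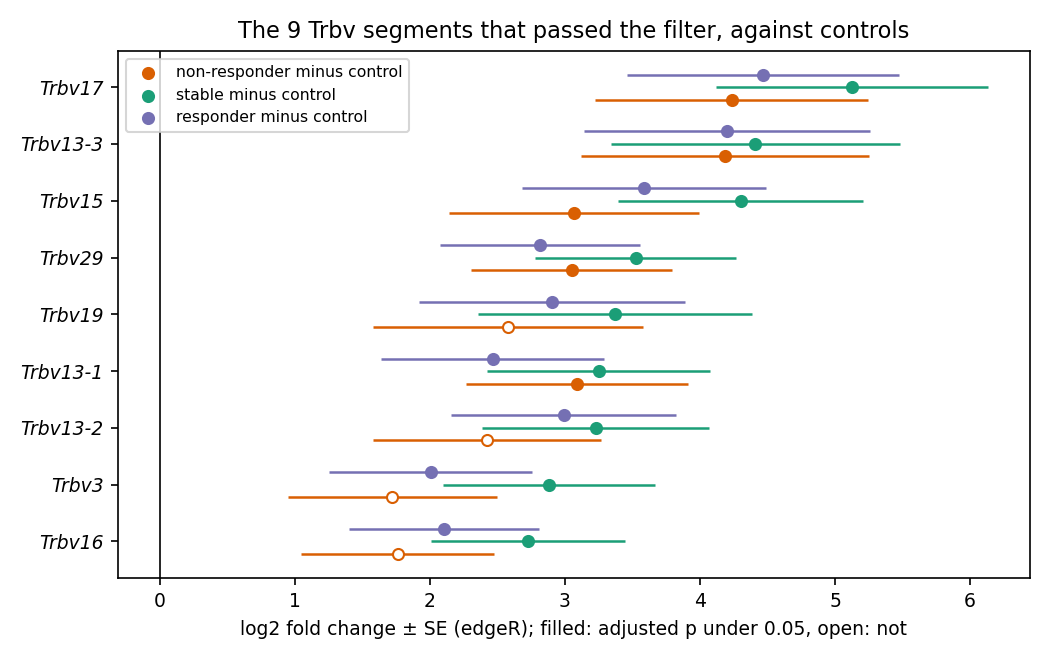
Log2 fold change ± SE from edgeR for the 9 Trbv segments that passed the filter, for non-responders, stable tumours and responders against the same 5 controls. All 27 values lie above 0, from 1.72 (Trbv3 in the non-responders) to 5.13 (Trbv17 in the stable tumours), and the 4 open symbols are the values in the non-responders that did not pass.

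The 3 comparisons share their controls, so their likeness is no independent result. Between outcome groups, the log2 differences of the 9 ran from -0.62 to 0.57 in the responders against non-responders, from -0.87 to -0.21 in the responders against stable tumours and from 0.16 to 1.23 in the stable tumours against non-responders, with standard errors of 0.56 to 0.82. With counts summed over families, 16 of 35 families passed the filter and 15, 15 and 9 were higher in the responders, stable tumours and non-responders than in the controls, beside 65.1%, 41.8% and 13.9% of all genes. The Trav families among them were Trav12, Trav13, Trav14, Trav16, Trav4, Trav6, Trav7 and Trav9, with Trav12 at 4.34 in the responders, 4.20 in the stable tumours and 3.23 in the non-responders against controls. Between outcome groups only the Trav13 family was called, higher in the responders than in the non-responders (log2 fold change 1.52, SE 0.57, adjusted p = 0.0306, edgeR), beside 48.9% of all genes, and 0 families were called in the responders against stable tumours, beside 38.3%. Trav13 stood about as far above non-responders in the stable tumours, without passing (1.51, SE 0.59, adjusted p = 0.0840), and responders minus stable tumours was 0.01. Trav6 gave 1.495 (adjusted p = 0.0587) in responders and 1.93 (adjusted p = 0.0538) in stable tumours against non-responders, neither of which passed.

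Among Trav segments, the most abundant per length after Trav4-4-dv10 were Trav16n, Trav13-1, Trav7-2, Trav16, Trav12-2, Trav6-7-dv9 and Trav6d-6. Each of the 7 had at most 3 counts over the 5 controls. Trav16n reached medians of 0.324, 0.268 and 0.185 CPM in the non-responders, stable tumours and responders, and Trav16 medians of 0.0897, 0.151 and 0.230. Trav7-2 and Trav12-2 were uneven within responders, since Trav7-2 ran from 0 to 0.893 CPM and Trav12-2 from 0 to 0.904 with 4 of 8 responders at 0. Trav6d-6 has the same transcript as Trav6-6, so its values belong to the pair.

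Semi-invariant T cells use fixed alpha segments, Trav1 in mucosal-associated invariant T cells and Trav11 in invariant natural killer T cells. Trav1 had 7 counts and Trav11 1 count over the 25 tumours, under the rule. Trav11d, a copy of Trav11, was a member with 17 counts, at 0 in all 5 controls, in 2 of 6 non-responders, 4 of 6 stable tumours and 3 of 8 responders, with a highest value of 0.215 CPM. Its mean in the responders was at least 2.85 times, and in the stable tumours at least 2.42 times, the level of 3 counts pooled over the controls.

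Trav4-4-dv10 went the other way. It was the most abundant Trav segment per length and the one that weighed most in the controls, at 0.133, 0.365, 0.430, 0.49 and 0.452 CPM in control tumours 1 to 5. It ran from 0.0832 through 0.157 to 0.691 CPM in the non-responders, from 0 through 0.0882 to 0.308 in the stable tumours and from 0 through 0.116 to 0.223 in the responders. Non-responders 1 and 2, at 0.57 and 0.691, lay above every control, and the other 4 at 0.0832 to 0.162. Of the 8 responders, 4 lay below every control, as did 4 of the 6 stable tumours. In the fit without a filter its log2 fold change against controls was -1.88 in the responders (SE 0.67, adjusted p = 0.0260), and -1.72 in the stable tumours (SE 0.69, adjusted p = 0.0688) and -0.51 in the non-responders (SE 0.64, adjusted p = 0.701, edgeR), which did not pass. In this fit it was the 1 member called lower in any comparison.

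The other 79 Trav segments summed to 0.765 ± 0.408 CPM in the controls, 3.88 ± 3.00 in the non-responders, 7.61 ± 1.60 in the stable tumours and 6.18 ± 2.56 in the responders (SD). Trav4-4-dv10 therefore made up 25.7% to 43.9% of Trav counts in the 5 controls, 1.64% to 29.5% in the non-responders, 0% to 3.51% in the stable tumours and 0% to 7.14% in the responders. Besides it, only Trav13n-1, a segment chosen after its values were seen, had a lower mean in all 3 outcome groups than in the controls, and that segment had 8 of its 9 control counts in control 3.

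**Figure D3:**
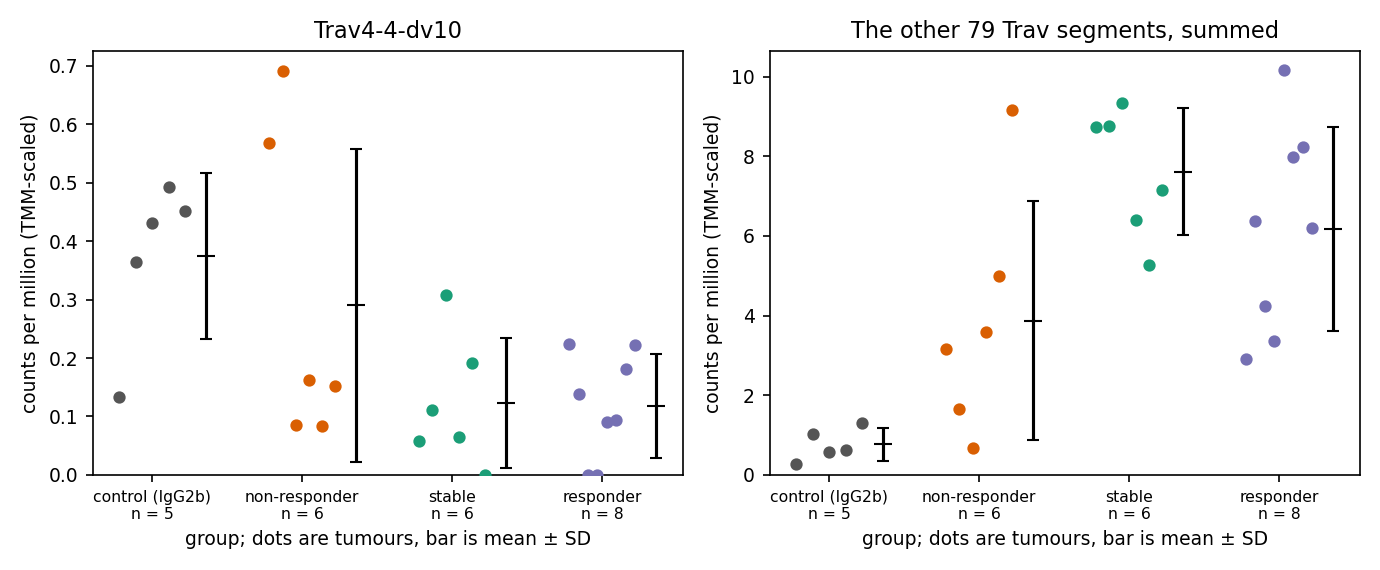
Level in CPM of Trav4-4-dv10 (left) and of the other 79 Trav segments summed (right) for each tumour, by group, with the group mean ± SD as a bar beside the dots; the axes differ in scale. Trav4-4-dv10 sits at 0.133 to 0.49 in the controls and at 0 to 0.223 in the responders, whereas the other 79 are higher in every responder than in any control.

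Trav4-4-dv10 lies at chr14:53683647-53684177 on the plus strand and overlaps no other annotated gene. Its variable exon is close to that of Trav4d-4, which is identical to Trav4n-4, and both are shown because a misplaced read could pass between them. Capitals mark the 8 of 279 letters that differ, an identity of 97.1%.
Trav4-4-dv10: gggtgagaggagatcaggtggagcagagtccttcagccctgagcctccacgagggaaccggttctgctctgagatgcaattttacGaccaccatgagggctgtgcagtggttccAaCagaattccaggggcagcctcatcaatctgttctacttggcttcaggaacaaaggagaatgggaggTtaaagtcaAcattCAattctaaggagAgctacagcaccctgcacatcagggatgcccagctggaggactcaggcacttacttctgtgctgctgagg
Trav4d-4: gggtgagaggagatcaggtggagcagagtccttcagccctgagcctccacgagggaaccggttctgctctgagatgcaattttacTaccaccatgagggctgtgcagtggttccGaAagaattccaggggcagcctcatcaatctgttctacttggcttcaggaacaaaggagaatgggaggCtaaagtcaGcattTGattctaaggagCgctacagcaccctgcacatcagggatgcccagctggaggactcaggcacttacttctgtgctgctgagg
The first exon shown spans chr14:53683899-53684177 and the second chr14:52991111-52991389. Summed over its family, Trav4 differed from controls by 0.06, -0.18 and 0.28 on the log2 scale in the responders, stable tumours and non-responders, none of which passed.

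Since Trav4-4-dv10 can join the delta chain, the delta constant region Trdc and the other segments named dv are given beside it. Trdc was at 0.133, 0.368, 0.352, 0.438 and 0.310 CPM in control tumours 1 to 5, and at 0.473 to 2.64 in the non-responders, 1.29 to 4.19 in the stable tumours and 0.893 to 3.60 in the responders. The other 8 members named dv summed to 0 to 0.276 CPM in the controls, 0 to 0.83 in the non-responders, 0.342 to 1.11 in the stable tumours and 0.419 to 1.10 in the responders. Both had their lowest group mean in the controls, where Trav4-4-dv10 had its highest. Of 8 gamma delta T cell markers 6 were detected in each group, and they summed to 0.233 to 0.587 CPM in the controls, 0.688 to 4.17 in the non-responders, 2.49 to 5.36 in the stable tumours and 1.56 to 5.30 in the responders. The summed melanocyte markers had group means of 12099, 4037, 120 and 146 CPM in controls, non-responders, stable tumours and responders, beside Trav4-4-dv10 means of 0.375, 0.290, 0.123 and 0.119 CPM. Within non-responders the markers were at 3023 and 6379 CPM in tumours 1 and 2, where Trav4-4-dv10 was high, at 13059 in tumour 3, where it was 0.0859, and at 860, 522 and 376 in tumours 4 to 6, where it was 0.0832 to 0.162. The part of pigment cells in its level was not tested.

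More segments were detected in the anti-CTLA-4 tumours, in step with their counts. Control tumours 1 to 5 had at least 1 count of 15, 26, 15, 20 and 30 of the 100 segments. The range was 25 to 89 in the non-responders (median 49), 66 to 78 in the stable tumours (median 72.5) and 15 to 76 in the responders (median 56.5). All 6 stable tumours, 5 of 6 non-responders and 6 of 8 responders exceeded every control. Of the 20 Trbv segments 7 to 15 were seen in the controls and 18 to 20 in the stable tumours, and of the 80 Trav segments 4 to 16 and 47 to 59.

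At a common depth the difference was smaller. The number of segments expected in a random draw of 55 counts was computed for the 21 tumours with at least that many, which leaves out control tumours 1 and 3, non-responder 3 and responder 1. It was 31.3, 21.6 and 32.6 in the 3 controls that remained, 27.7 to 34.3 in 5 non-responders (median 32.8), 30.6 to 35.6 in 6 stable tumours (median 33.6) and 31.0 to 37.7 in 7 responders (median 33.4). The means were 28.5 ± 6.01, 31.4 ± 2.83, 33.5 ± 1.71 and 34.1 ± 2.31 (SD). Without thinning, stable tumours had a mean of 20.8 more segments than responders; at the common depth responders had 0.57 more. Against controls, responders had a mean of 30.2 more segments without thinning and 5.58 more with it. Without control 4 the differences to controls at the common depth were 2.13 in responders, 1.55 in stable tumours and -0.48 in non-responders, and that of responders to stable tumours ran from -0.03 to 1.09 on leaving out 1 tumour. Of the 3 controls, control 4, in which Trav4-4-dv10 took 43.9% of Trav counts, was lowest. Without this segment the differences to controls turned to -1.89 in the responders, -2.46 in the stable tumours and -3.89 in the non-responders. Only control 5 still reached the depth, so these differences rest on 1 control.

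**Figure D4:**
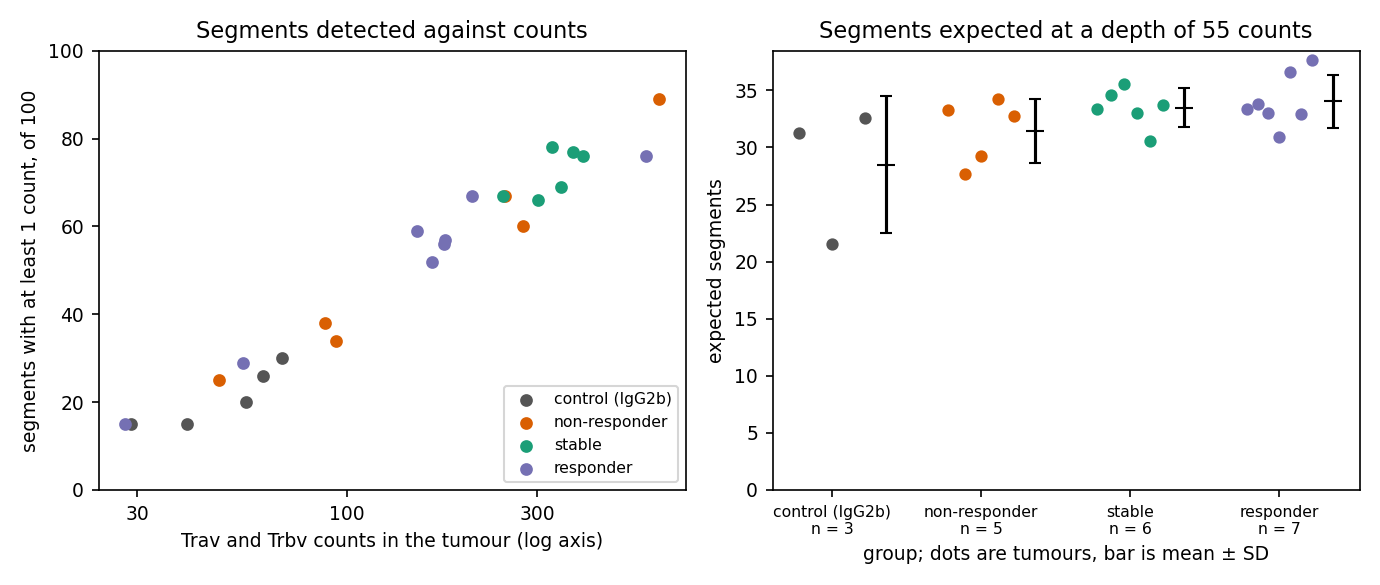
Left, segments with at least 1 count (of 100) against the Trav and Trbv counts of each of the 25 tumours, on a log axis; right, the number expected in a draw of 55 counts for the 21 tumours with at least that many, with the group mean ± SD as a bar. The left panel shows 1 rising band that holds all groups, and the right panel shows values from 21.6 to 37.7 with overlapping groups.

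Evenness of use (Pielou's index on counts per kilobase, where 1 means equal use of all segments seen) is given for each chain. For Trav it was 0.887, 0.861, 0.705, 0.744 and 0.858 in control tumours 1 to 5, and 0.831 to 0.954 in the non-responders, 0.935 to 0.956 in the stable tumours and 0.872 to 0.948 in the responders. All 6 stable tumours, 7 of 8 responders and 5 of 6 non-responders were more even than every control. The differences of the means to controls were 0.133, 0.114 and 0.104 for stable tumours, responders and non-responders. Without Trav4-4-dv10 they were 0.069, 0.047 and 0.063, and the control values, 0.719 to 0.953, then overlapped every group. The controls held 12 to 41 Trav counts and the stable tumours 114 to 182, so these values are not at a common depth. Simpson's index on all Trav segments had means of 0.826 in the controls, 0.959 in the non-responders, 0.981 in the stable tumours and 0.967 in the responders. By it, the same numbers of tumours lay above every control.

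For Trbv the index was 0.906, 0.944, 0.905, 0.891 and 0.905 in control tumours 1 to 5, 0.880 to 0.955 in the non-responders, 0.913 to 0.948 in the stable tumours and 0.878 to 0.936 in the responders. The largest difference between 2 group means was 0.023, about the size of the spread within groups (SD 0.016 to 0.028), and all groups overlapped. With Simpson's index on Trbv, the differences to controls were 0.040 for stable tumours, 0.038 for non-responders and 0.031 for responders, with 5 of 6, 5 of 6 and 4 of 8 tumours above every control. Between outcome groups the mean Trav index differed by at most 0.029.

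The segment with the highest length-scaled share of Trbv took 17.8% to 36.8% of it in the controls (median 26.1%), 11.0% to 27.4% in the non-responders, 10.9% to 15.8% in the stable tumours and 10.7% to 30.5% in the responders. In the tumours with few counts these shares are imprecise. The controls held 14 to 35 Trbv counts and the stable tumours 131 to 219, so the shares are not at a common depth. In control 4 the leader, Trbv3, had 6 of 15 Trbv counts (40.0%, 95% Wilson interval 19.8% to 64.3%), and in responder 1 Trbv5 had 4 of 14 (28.6%, 11.7% to 54.6%). In responder 5, the deepest responder, Trbv3 had 61 of 332 (18.4%, 14.6% to 22.9%). These intervals cover counting error only, as reads here are not counted as molecules. Trbv3 led in 7 of 25 tumours, Trbv13-1 and Trbv17 in 4 each, Trbv13-2 and Trbv19 in 2 each, and 6 other segments in 1 each.

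On the alpha chain the leading share was 27.6% to 46.3% in the controls, 6.38% to 31.4% in the non-responders, 4.22% to 7.65% in the stable tumours and 6.47% to 31.8% in the responders. The controls held 12 to 41 Trav counts and the stable tumours 114 to 182, so these shares are not at a common depth. The highest responder share was that of responder 1, with 14 Trav counts. Trav4-4-dv10 led in 4 controls and in the non-responders 1 and 2, and in none of the other 19 tumours. The leader of control 1 was Trav14-2 with 5 of 12 counts (41.7%, 95% Wilson interval 19.3% to 68.0%). In responder 2 the leader was Trav12-3 with 12 of 94 counts (12.8%, 7.46% to 21.0%), and in responder 7 Trav12-2 with 10 of 93 (10.8%, 5.95% to 18.7%). Among stable tumours Trav7-3 led in 2 and 4 other segments in 1 each.

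By mean length-scaled share, Trbv3 took 20.5% ± 11.0 of Trbv use in the controls, 8.3% ± 5.3 in the non-responders, 11.7% ± 2.2 in the stable tumours and 7.3% ± 4.8 in the responders (SD). Trbv17 took 1.8% ± 2.7, 6.5% ± 4.7, 8.0% ± 5.0 and 9.6% ± 7.9, and Trbv13-3 took 2.0% ± 3.0, 9.9% ± 8.8, 5.5% ± 4.4 and 6.2% ± 4.3 in the same order. Trbv23 was the least used, at 0% in the non-responders and means of 0.668%, 0.682% and 1.08% in the controls, stable tumours and responders.

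**Figure D5:**
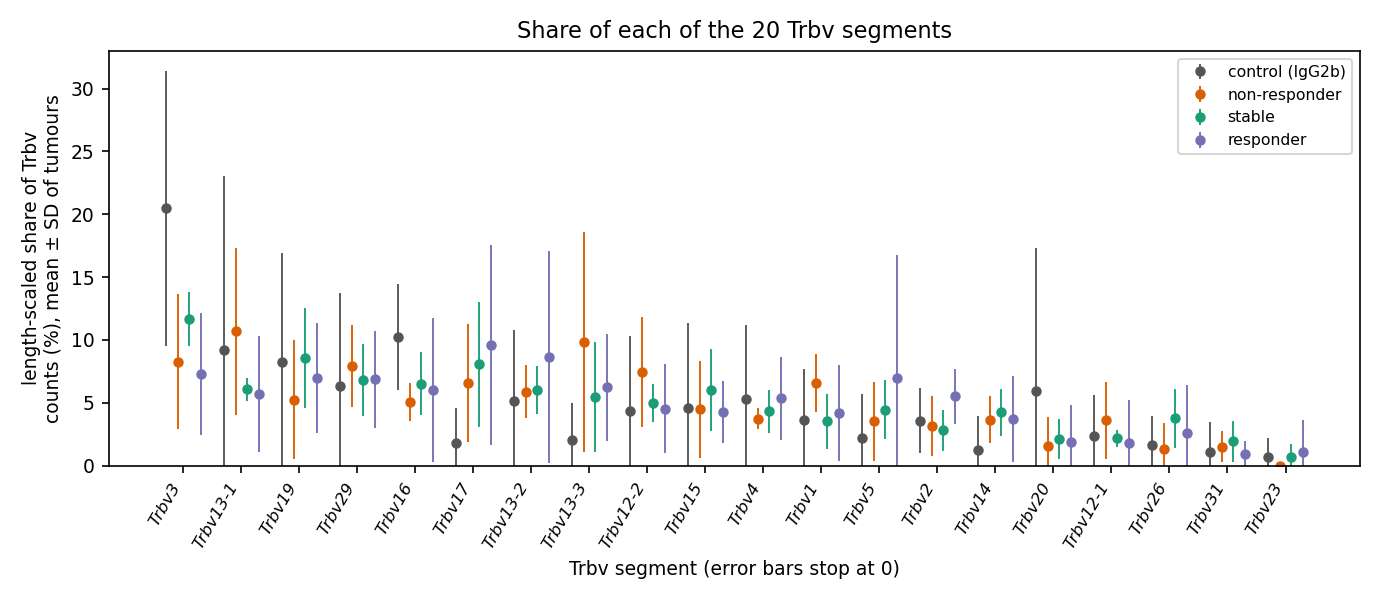
Length-scaled share of Trbv counts (%) taken by each of the 20 Trbv segments in each group, as mean ± SD over tumours, with error bars stopped at 0. Trbv3 has the highest mean share in the controls (20.5%) and stable tumours (11.7%), and its error bars in the outcome groups overlap.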

How the data were processed

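Bulk RNA from 25 tumours was sequenced. PolyA RNA is named as the molecule and a stranded total RNA kit as the library kit, per the labels, and which applied was not resolved. Per the submitters' processing notes, which give no roles or order, the tools were bcl2fastq 2.17, Trimmomatic, STAR 2.5.1 and RSEM 1.2.22, with build mm10. The authors deposited expected counts per gene, not normalized, of which 5.64% were not whole. They were rounded for the tests, which had been planned for whole counts, and kept as deposited for sums, shares and evenness. Gene identifiers matched GENCODE vM21 (GRCm38), the source of coordinates and sequences. An RPKM table was not used, as it holds no Trav or Trbv row.

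Tests used edgeR 4.0.16 in R 4.3.3 with filterByExpr, TMM, 4 group means over all 25 tumours and two-sided quasi-likelihood F tests, adjusted over all genes tested and called at an adjusted p under 0.05. DESeq2 1.42.0 was an alternative. The fit was tested on simulated data. Depth was thinned analytically to 55 counts. Named genes are the 8 Trbv and 8 Trav segments of highest length-scaled level, Trav1, Trav11 and Trav11d, the called segments of most extreme fold change, the leading segment of each tumour and the receptor constant and CD genes. The segments, lists and rules were chosen with earlier results of these data known.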

Additional observations from a re-analysis of the deposited data

Results flagged for a closer look

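Values that stood apart from their own group are given here. In 59 tests of the highest or lowest tumour of a group, 12 were found. Chance would flag about 1 in 20 if the tests were independent. They were not, since several flags fall on the same tumour, so no excess over chance is read from the 12. Responder 5 was far above the other 7 responders in the summed level (25.2 CPM, next 14.8), in segment counts per Cd3e count (1.72, next 0.714), in Trbv3 (2.74 CPM, next 0.698), in Trbv19 (2.70 CPM, next 1.08) and in Trbv15 (1.03 CPM, next 0.322). It is also the responder with a protein-coding share of 87.0%, and the part of that share was not tested. Non-responder 6, the tumour with the most segment counts, was far above the other 5 in Trbv17 (1.41 CPM), Trbv13-2 (0.764 CPM) and Trbv15 (0.803 CPM). Control 5, the control with the most segment counts, was far above the other 4 in Trbv16 (0.259 CPM) and Trbv13-2 (0.207 CPM). In evenness of Trbv use, control 2 was far above the other controls at 0.944, and non-responder 2 far below the other non-responders at 0.880.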

How the results depend on the processing

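No paired analysis was possible because replicate numbers are accession-order names that pair no tumours, so no replicate block was fitted. Of 405 differences in summed level, segments detected and evenness under an alternative, 384 stayed within 1 SD of the main value. The cause of each change below was not tested unless the setting itself changes the tumours or genes used. Without thinning, the difference in segments with at least 1 and at least 3 counts was -0.79 and -2.42 for responders minus non-responders, -20.8 and -17.8 for responders minus stable tumours, 20.0 and 15.3 for stable tumours minus non-responders, 30.2 and 16.9 for responders minus controls, 51.0 and 34.6 for stable tumours minus controls, and 31.0 and 19.3 for non-responders minus controls. Without Trav4-4-dv10, an alternative chosen after seeing the data, the differences to controls at the common depth were -1.89 in responders, -2.46 in stable tumours and -3.89 in non-responders. Only control 5 was left there, so they rest on 1 control. Trav evenness without that segment differed from controls by 0.047 and 0.069 in responders and stable tumours. With families, Trav evenness differed by 0.078 for stable tumours minus controls, and Trbv evenness by 0.027 for stable tumours minus non-responders and -0.00759 for non-responders minus controls. With Simpson's index Trbv evenness differed from controls by 0.031 in responders, 0.040 in stable tumours and 0.038 in non-responders. Counts of called members in responders against non-responders were 3 with DESeq2, 2 with no filter and 1 with families. Against controls they were 42, 53 and 15 in responders, 44, 53 and 15 in stable tumours, and 14, 14 and 9 in non-responders, while DESeq2 called 55.1%, 35.6% and 16.4% of all genes in those comparisons. Fitted on the 2 groups alone, 4 of 4 tested members were called in stable tumours and 0 of 1 in non-responders, and with protein-coding and T cell receptor genes only, 8 in non-responders. Leaving out 1 tumour at a time gave 4 to 8 called members in non-responders against controls (8 without control 5 or without non-responder 3). It gave 7 to 11 for the responders and 8 to 11 for the stable tumours. In responders against stable tumours it gave 0 to 1 (Trbv3, without responder 5, beside 49.3% of all genes). In stable tumours against non-responders it gave 0 to 1 (Trbv17, without non-responder 6, beside 21.1% of all genes). Where no share of all genes stands beside a count, the count is a description only. Trbv3 in responders against controls lost its call without responder 5, control 1 or control 2, and Trbv15 in non-responders against controls without control 1, 2 or 5. A stricter filter left no member, and no control reached 100 counts. Depth is the main limit: with 29 to 69 segment counts in a control, single Trav segments rest on a few reads.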
